A study of Mus musculus with 36 samples.

Results

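The embryos compared here were wild type (WT) for Tet1 and came from dams fed an excess or a control amount of folic acid (FA). Of the 36 libraries in the series, 7 had WT together with 30 ppm or 3 ppm in their titles, 3 on 30 ppm FA and 4 on 3 ppm FA. Each library held the DNA of 1 brain, taken at E11.5 (embryonic day) from the front of the forebrain back to the hindbrain above the otic vesicle. All embryos were of the mouse strain 129S6.cg Tet1<tm1Koh>, whose targeted allele carries an insertion at the first coding ATG of Tet1 and which has heterozygous (HET) and knockout (KO) embryos beside the WT ones. Dams and studs were HET for Tet1, and the dams had been on their diet for at least 4 weeks before timed mating. Embryos of 7 other groups are used for reference: HET and KO on 30 ppm (5 and 6) and on 3 ppm (3 and 5), and HET, KO and WT (3, 5 and 2) from dams on a depleted diet of 0.1 ppm FA. The shallowest library of all, a HET embryo on 0.1 ppm, was read at the Tet1 CpGs below and left out elsewhere. All the diets followed the AIN-93G formulation and held 1% succinylsulfathiazole, an antibiotic that stops gut bacteria from supplying folate. All 7 embryos of the comparison and the HET embryos on 3 and 0.1 ppm were labelled normal in phenotype, and each of the other 5 groups also held embryos labelled NTD (neural tube defect) or inHB. Replicates 1 and 2 on 30 ppm and replicates 2 and 3 on 3 ppm were labelled female, and the other 3 embryos male. Each diet was represented by 3 litters, with replicates 1 and 2 on 3 ppm as littermates, and no litter had both diets, so that diet and litter cannot be told apart.

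Folate carries the carbon units from which methionine and then S-adenosylmethionine, the methyl donor of the DNA methyltransferases, are regenerated. TET1 works against these enzymes by oxidising 5-methylcytosine, mainly at CpG-rich promoters and their flanks, and is needed for the developing brain to keep such sequence lowly methylated. The comparison addressed whether surplus dietary FA changes DNA methylation in the embryonic brain while TET1 is intact. Methylation was read by reduced representation sequencing of DNA cut with MspI and TaqI, after oxidation and bisulfite conversion, so that only 5-methylcytosine and not its hydroxymethyl form was counted. The methylation level is the percentage of methylated reads. The tissue was bulk brain, in which a change of level within cells and a change in the mix of cells cannot be told apart.

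The 7 libraries held between 28776787 and 197322320 CpG calls. Over the 1164547 autosomal CpGs that were covered at least 5 times in all 7 embryos, the median coverage was 52, 39 and 20 reads in 30 ppm replicates 1 to 3 and 114, 36, 20 and 25 reads in 3 ppm replicates 1 to 4. Labelled sex was checked by the level at 2744 CpGs of the X chromosome, and it matched in all 7 WT embryos but not in 2 libraries of other groups, HET replicate 1 and KO replicate 4 on 3 ppm.

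The genotype label was checked inside Tet1, at 4 CpGs of an intron (mm10, chromosome 10, positions 62884019, 62884999, 62885446 and 62885927) that had been chosen on HET and KO libraries. The embryo labelled WT that is 30 ppm replicate 2 carried more methylated reads there than most other WT embryos, within the range of the HET libraries at the first and second CpG, below it at the third and above it at the fourth. At the first CpG it had 36.36% (12 of 33 reads, 95% Wilson interval 22.2 to 53.4), whereas 30 ppm replicates 1 and 3 had 0 methylated of 30 and of 8 reads and the 3 ppm embryos had 0% to 7.32%, and the median HET library had 30.0%. At the second CpG it had 62.5% (30 of 48 reads, interval 48.4 to 74.8) against a HET median of 60.0%. The other WT embryos on these diets had at most 30.6% there, apart from 30 ppm replicate 3 with 53.8%, or 7 of 13 reads. At the third CpG 30 ppm replicate 2 had 40.4% (interval 28.2 to 53.9) and 3 ppm replicate 4 had 9 methylated of 25 reads (interval 20.2 to 55.5), so the intervals of these embryos overlapped, and the HET libraries had 42.3% to 87.5%. At the fourth CpG it had 20.5% (9 of 44 reads, lower bound of the interval 11.2), while the other WT embryos had 0% to 3.23% and the HET libraries had 0% to 14.3%. KO libraries had medians of 81.3%, 91.8%, 89.4% and 45.9% at the 4 CpGs. The library labelled KO that is replicate 1 on 30 ppm had 9 methylated of 20, 13 of 24, 7 of 14 and 1 of 36 reads at these CpGs, the lowest share of the KO libraries at each of them. The list of embryos in the study gives its genotype as HET, against its label, and it is kept in the labelled group here with values given without it. Because 30 ppm replicate 2 went against its label at the first and second CpG, the main results below are given with and without it. Intervals cover counting error only.

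**Figure D1:**
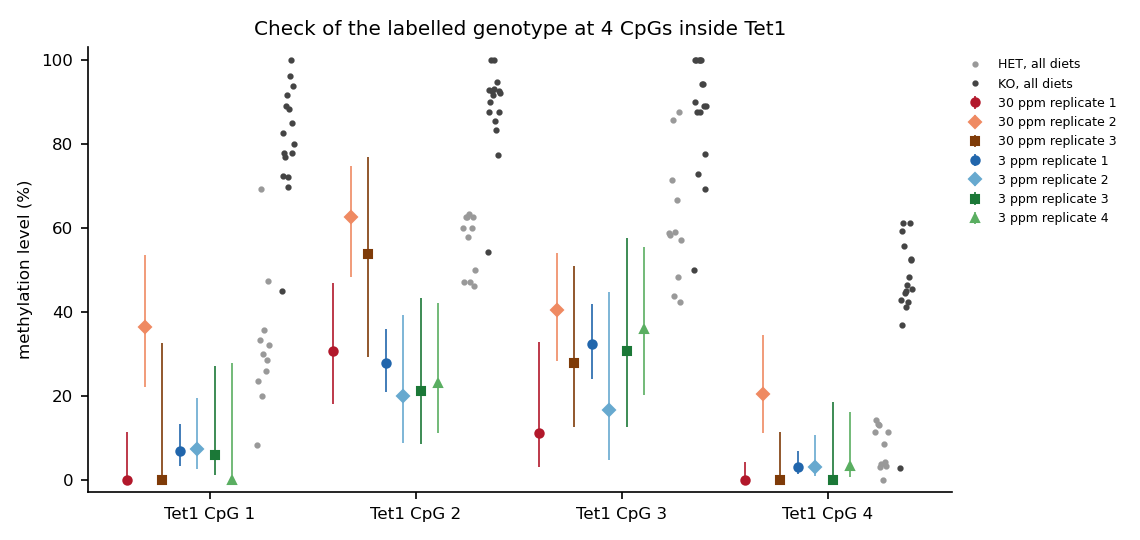
Methylation level (%, vertical axis) at 4 CpGs inside Tet1 in the 7 WT embryos, with 95% Wilson intervals as bars, and in the HET and KO libraries of all diets as small dots. The 30 ppm replicate 2 (diamond) stands at 36.36%, 62.5%, 40.4% and 20.5%, among the HET libraries at the first and second CpG, while 30 ppm replicate 1 lies at 0% at the first and the fourth.

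The genome was examined in windows of 1 kb, named tiles, with 3 or more CpGs, each read 5 or more times in each of the 7 embryos. 7 of the tiles described in full are shown as sequence, because they belong to the named tiles below and show which CpGs were measured. All sequences are the plus strand of GRCm38.p6 (mm10), from the first to the last CpG measured in the tile, and capitals mark the CpGs, all of which were measured in all 7 embryos. The first 4 had higher levels on 30 ppm: an exon of Zfp213 at chr17:23557889-23557990 with 8 CpGs, the promoter of Tekt4 at chr17:25471789-25471926 with 10 CpGs, an intergenic stretch 10310 bp upstream of Ngfr at chr11:95598008-95598083 with 4 CpGs, and a stretch 4790 bp upstream of Helt at chr8:46299420-46299503 with 5 CpGs. The other 3 had lower levels on 30 ppm and are intronic: Adcy6 at chr15:98601775-98601861 with 4 CpGs, Hk1 at chr10:62309149-62309254 with 4 CpGs, and Micall2 at chr5:139724757-139724893 with 7 CpGs. The tile of Rsrc1, described below, is the only one of the 16 named tiles that lies in sequence masked as a repeat in the reference.
Zfp213: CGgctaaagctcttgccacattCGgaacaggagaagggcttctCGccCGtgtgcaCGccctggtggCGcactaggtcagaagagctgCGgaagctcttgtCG
Tekt4: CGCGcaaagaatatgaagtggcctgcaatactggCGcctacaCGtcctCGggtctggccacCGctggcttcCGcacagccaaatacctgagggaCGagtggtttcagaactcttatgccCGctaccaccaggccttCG
Ngfr: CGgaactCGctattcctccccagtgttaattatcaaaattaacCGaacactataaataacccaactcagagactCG
Helt: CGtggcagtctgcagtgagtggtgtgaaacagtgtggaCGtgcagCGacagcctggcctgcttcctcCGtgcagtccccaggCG
Adcy6: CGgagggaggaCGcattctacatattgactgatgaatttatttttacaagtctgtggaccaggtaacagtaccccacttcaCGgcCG
Hk1: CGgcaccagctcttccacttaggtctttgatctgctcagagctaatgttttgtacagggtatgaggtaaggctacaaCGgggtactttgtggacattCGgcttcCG
Micall2: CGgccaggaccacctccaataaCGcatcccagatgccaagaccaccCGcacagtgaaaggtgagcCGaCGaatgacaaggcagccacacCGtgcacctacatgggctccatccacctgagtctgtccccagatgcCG

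A further 4 sequences are shown because their tiles passed the test only when 1 embryo was left out. Stretches of Wnt3a (intron, chr11:59284326-59284399, 9 CpGs) and Adra1a (exon, chr14:66638006-66638224, 12 CpGs) did so without 30 ppm replicate 1. Stretches 24457 bp from the start site of Wnt11 (chr7:98872220-98872307, 8 CpGs) and 6088 bp upstream of Syk (chr13:52577037-52577134, 7 CpGs) did so without 30 ppm replicate 2. With 75.7% of its bases G or C, the Wnt3a stretch was the richest in GC of the 11 sequences, and the Ngfr stretch with 40.8% the poorest.
Wnt3a: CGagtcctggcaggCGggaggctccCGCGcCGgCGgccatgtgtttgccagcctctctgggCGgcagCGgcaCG
Adra1a: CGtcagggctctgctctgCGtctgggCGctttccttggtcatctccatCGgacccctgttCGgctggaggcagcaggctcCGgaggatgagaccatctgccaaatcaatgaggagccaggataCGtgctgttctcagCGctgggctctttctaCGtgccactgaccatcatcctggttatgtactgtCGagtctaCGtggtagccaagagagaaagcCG
Wnt11: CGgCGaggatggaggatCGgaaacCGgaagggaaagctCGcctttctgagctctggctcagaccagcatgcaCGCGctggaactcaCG
Syk: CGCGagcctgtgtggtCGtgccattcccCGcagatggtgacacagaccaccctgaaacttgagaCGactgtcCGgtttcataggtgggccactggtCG

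Mean methylation of the autosomal CpGs did not differ detectably between the diets. It was 33.7%, 34.99% and 34.14% in 30 ppm replicates 1 to 3 and 34.34%, 33.8%, 34.05% and 33.7% in 3 ppm replicates 1 to 4. The diet group with excess FA thus held both the highest embryo, replicate 2, and the lowest, replicate 1, with the 3 ppm embryos between them. The means were 34.27% ± 0.671 (SD, n = 3) and 33.98% ± 0.278 (SD, n = 4), a difference of 0.286 percentage points with a two-sided exact permutation p of 0.514, where 35 splits of 3 against 4 allow no p below 0.0286. Without 30 ppm replicate 2 the difference was -0.0766 points (exact p = 0.733), and without replicate 1 it was 0.586 points (exact p = 0.2). The diet difference of the mean was compared with that in HET embryos (5 against 3) and KO embryos (6 against 5) over the CpGs shared by all 35 libraries used. The permutation exchanged genotype labels within each diet. Any difference in level between the genotypes therefore also entered it, and it did not test this contrast alone. The diet difference was 0.650 points greater in WT than in HET (exact permutation p = 0.220, adjusted p = 0.418) and 0.990 points greater in WT than in KO (exact permutation p = 0.418, adjusted p = 0.418). The latter was 0.608 points (exact permutation p = 0.642) without the doubted KO embryo, and without 30 ppm WT replicate 2 the differences from HET and KO were 0.314 and 0.655 points.

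The CpGs were then sorted by place and by their mean level in HET embryos. Promoter CpGs, within 1 kb of a start site, had 9.24% ± 0.283 (SD, n = 3) on 30 ppm against 9.05% ± 0.110 (SD, n = 4) on 3 ppm, and CpG-dense sequence had 3.82% ± 0.132 and 3.70% ± 0.0969. Exons, introns and intergenic sequence had between 61.2% and 70.2% on either diet, with differences of 0.523, 0.371 and 0.408 points. The widest gap was at CpGs that are 10 to 30% methylated in HET embryos. There 30 ppm replicates 1 to 3 had 14.9%, 21.8% and 15.1% and 3 ppm replicates 1 to 4 had 15.9%, 15.1%, 15.4% and 14.4%. Only 30 ppm replicate 2 lay outside the range of the 3 ppm embryos, and the other 30 ppm embryos lay within it. The means were 17.3% ± 3.96 and 15.2% ± 0.663, and at CpGs 30 to 70% methylated in HET embryos they were 50.7% ± 3.90 and 49.3% ± 1.03. None of the 11 classes passed the exact permutation test, with adjusted p = 0.686 in all of them. Without 30 ppm replicate 2 the difference turned negative in 8 of the 11 classes, to between -0.846 points (30 to 70% in HET) and -0.0247 points (90 to 100% in HET), and it stayed positive but fell at promoters, from 0.186 to 0.0319 points, in CpG-dense sequence, from 0.122 to 0.0543 points, and at CpGs under 10% in HET, from 0.129 to 0.0692 points.

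**Figure D2:**
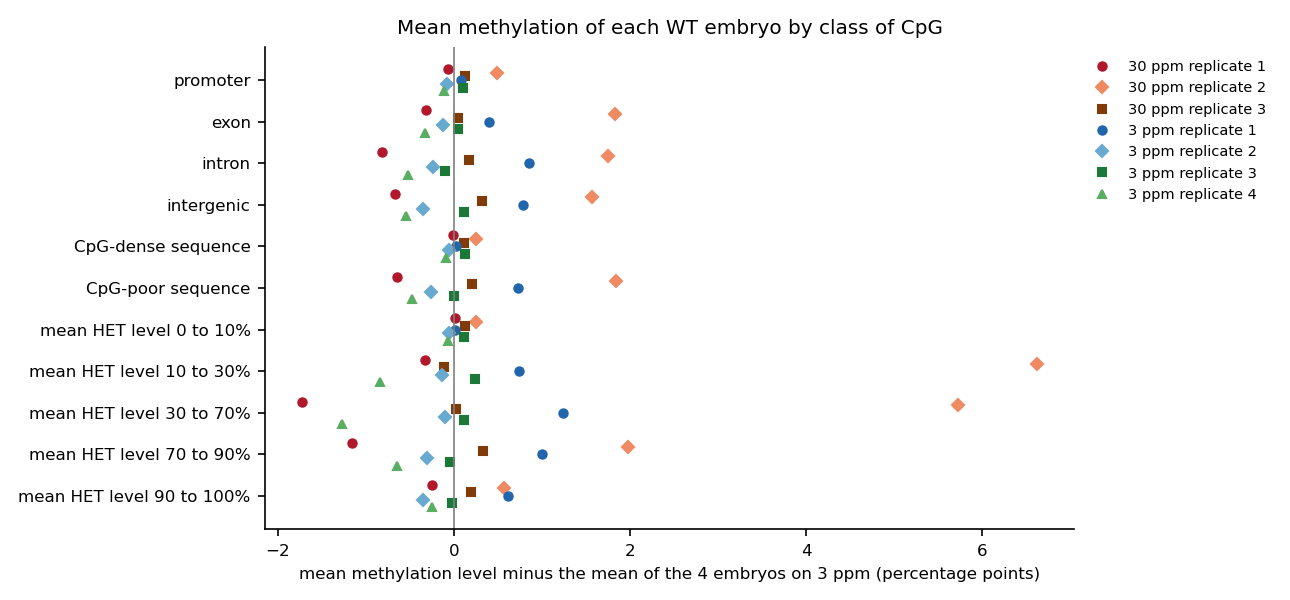
Mean methylation level of each WT embryo in 11 classes of CpG, as the difference in percentage points from the mean of the 4 embryos on 3 ppm (horizontal axis, vertical line at 0). The 30 ppm replicate 2 (light diamond) lies above every 3 ppm embryo in 10 of the 11 classes and farthest at CpGs 10 to 30% methylated in HET embryos (21.8% against a 3 ppm mean of 15.2%), whereas 30 ppm replicate 1 (dark circle) lies below every 3 ppm embryo in 5 classes.

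Of 59101 tiles tested, 0 passed an adjusted p of 0.05 with at least 10 points between the means in the quasi-binomial test with limma's moderated dispersion (percent called 0), and limma on logit levels also called 0. The smallest adjusted p was 0.0977, shared by 7 tiles, 4 higher and 3 lower on 30 ppm. Of these 2 differed by at least 10 points, an intronic tile of Fam169b, 14.6 points higher with the smallest unadjusted p (3.10e-06), and the tile of Rsrc1, 15.1 points lower (difference -15.1). At an unadjusted p under 0.05 with at least 10 points there were 320 tiles (0.541% of those tested), 188 higher (0.318%) and 132 lower (0.223%) on 30 ppm, and 348 by limma. By size alone 538 tiles were at least 10 points higher on 30 ppm (0.91%) and 267 at least 10 points lower (0.452%). Every 30 ppm embryo lay above every 3 ppm embryo in 1628 tiles (2.75%) and below in 1064 (1.8%). The median tile had a pooled SD of 3.86 points within diets and a 95% half-width of the difference of 7.57 points, so that differences of a few points at single tiles were not detectable at this depth and number of embryos. Of the 538 higher tiles 327 kept at least 10 points without 30 ppm replicate 2 and 1 turned its sign, and of the 267 lower tiles 241 kept it and 0 turned. The share of tiles with the higher mean on 30 ppm was 57.49% with all 7 embryos and 48.1% without replicate 2.

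Among the 30 ppm embryos, replicate 2 read highest and replicate 1 lowest on average when each was set against its group mates. Such deviations cancel out within a diet by their definition, so that 1 high embryo lowers the reading of the others. Relative to the mean of the other embryos on its diet, 30 ppm replicate 1 was 2.17 points lower on average over the tiles (mean deviation -2.17), replicate 2 was 2.67 points higher and replicate 3 deviated by -0.498 points. In 3 ppm replicates 1 to 4 the deviations were 1.22, -0.443, -0.0460 and -0.731 points. Replicate 2 on 30 ppm exceeded its group mates by 20 points or more in 626 tiles and fell short of them by as much in 36. For replicate 1 these counts were 34 and 308, and for replicate 3 they were 220 and 499, the largest in all, with an SD of the deviation of 6.82 points beside 6.01 in replicate 2. Replicate 3 had the fewest calls of the 7 libraries. In 3 ppm replicates 1 to 4 the counts were 20 and 1, 57 and 93, 177 and 314, and 67 and 262. Their median coverages were 114, 36, 20 and 25 reads, beside 20 in 30 ppm replicate 3. The part of depth in these counts was not tested. Leaving out 30 ppm replicate 1 gave 115 called tiles (0.195% of those tested), 113 higher (0.191%) and 2 lower (0.00338%). Leaving out 30 ppm replicate 2 gave 23 called tiles (0.0389%), 2 higher (0.00338%) and 21 lower (0.0355%). Leaving out any of the other 5 embryos gave 0. When the same embryos were left out in limma on logit levels, which gives each embryo the same weight, 0 tiles passed in either case, with 883 tiles at an unadjusted p under 0.05 and 10 points without replicate 1 and 635 without replicate 2. These limma fits were added after the calls had been seen. Taking the reads of all embryos as independent, with the dispersion fixed at 1, called 249 tiles (0.421%), 147 higher (0.249%) and 102 lower (0.173%). The same setting without 30 ppm replicate 2 called 441 (0.746%), 63 higher (0.107%) and 378 lower (0.64%). In tiles of 500 bp 3 were called (0.00498%), 2 higher (0.00332%), in an intron of Fam169b and an exon of Begain, and 1 lower (0.00166%), the Rsrc1 stretch, with differences of 14.6, 17.1 and -15.1 points.

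**Figure D3:**
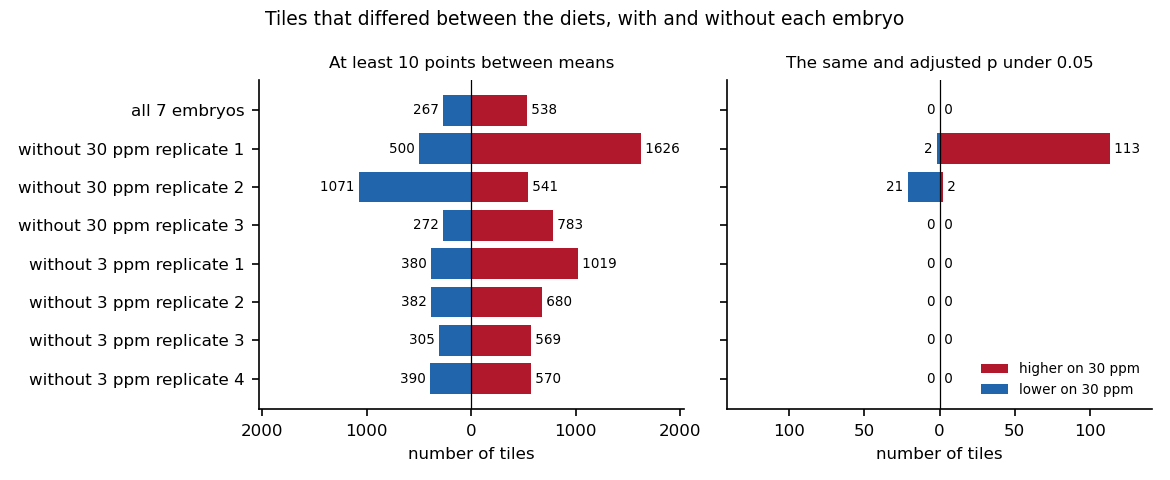
Number of tiles at least 10 points higher (red) or lower (blue) on 30 ppm than on 3 ppm with all 7 embryos and without each embryo in turn (left), and of those also at an adjusted p under 0.05 (right, on a scale of its own). With all 7 embryos 538 tiles were higher and 267 lower by 10 points and 0 were called, and calls appeared only without 30 ppm replicate 1 (113 higher, 2 lower) or without replicate 2 (2 higher, 21 lower).

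The 10 higher and 6 lower tiles with the smallest unadjusted p among the 177 and 92 tiles that differed by 10 points with the diets apart (0.299% and 0.156% of tiles) are named by their nearest gene. Since they were picked for not overlapping, that they do not overlap is no result. None passed the adjusted test with all 7 embryos. At the Zfp213 tile, in an exon of this zinc finger gene, the level was 54.3%, 57.4% and 54.4% in 30 ppm replicates 1 to 3 and 42.06%, 41.7%, 41.6% and 39.5% in 3 ppm replicates 1 to 4. The 2 diets were each tight and clearly apart, with 55.4% ± 1.74 (SD, n = 3) against 41.19% ± 1.17 (SD, n = 4). The quasi-binomial test with limma's moderation gave the difference of 14.2 points an adjusted p of 0.178, and the difference of 13.2 points that was found without 30 ppm replicate 2 one of 0.0457. Without 3 ppm replicate 1 the adjusted p was 0.971, and limma on logit levels gave 0.967 without 30 ppm replicate 2. At the tile upstream of Ngfr, which encodes the low-affinity neurotrophin receptor p75, the 30 ppm embryos had 39.4%, 42.3% and 38.33% and the 3 ppm embryos 26.8%, 21.4%, 24.6% and 21.9%. The lowest 30 ppm embryo stood well above the highest 3 ppm embryo, and the difference was 16.4 points (adjusted p = 0.458), or 15.2 points without replicate 2. At the promoter tile of Tekt4, a tektin of cilia and sperm tails, the levels were 44.0%, 54.74% and 51.4% on 30 ppm against 27.9%, 35.99%, 36.25% and 43.3% on 3 ppm. Here 30 ppm replicate 1 was less than 1 point above 3 ppm replicate 4, and the difference was 14.2 points (adjusted p = 0.307), or 11.8 points without replicate 2.

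Upstream of Helt, a bHLH factor of GABAergic neurons in the midbrain, the tile also covers a start site of a long noncoding RNA, Gm39168. It had 45.26%, 56.4% and 48.6% on 30 ppm against 37.4%, 38.4%, 31.0% and 30.0% on 3 ppm, a difference of 15.9 points that was 12.7 points without replicate 2. At the tile 9349 bp upstream of Mnx1, the homeodomain factor of motor neurons, the 30 ppm embryos had 25.4%, 31.9% and 20.4% and the 3 ppm embryos 17.7%, 11.54%, 8.62% and 7.46%. The replicates of either diet were spread over more than 10 points, and the means of the diets were 25.9% ± 5.74 and 11.3% ± 4.58. In an exon of Cdh20, a cadherin of cell adhesion, the 30 ppm embryos had 19.4%, 30.1% and 27.8% and the 3 ppm embryos 15.4%, 11.6%, 4.63% and 17.8%. The gap between the nearest embryos of the diets was under 2 points there, and the difference was 13.4 points, or 11.2 points without replicate 2. At the promoter of Shroom1, an actin-binding protein, 30 ppm replicate 1 was the highest with 56.8%, followed by 54.4% and 44.1% in replicates 2 and 3, against 36.8%, 42.5%, 36.61% and 39.8% on 3 ppm. The Tgm3 tile lies 64426 bp upstream of that transglutaminase gene and at a start site of the long noncoding RNA Gm28196. It had 26.2%, 37.9% and 31.7% on 30 ppm against 12.3% to 21.2% on 3 ppm, with a difference of 13.9 points, or 10.9 points without replicate 2. The remaining tiles, in an exon of the GTPase-activating gene Arhgap23 and at the promoter of the matrix metalloprotease gene Mmp23, had 29.6% ± 6.26 and 37.7% ± 5.64 on 30 ppm against 19.5% ± 1.04 and 26.2% ± 2.54 on 3 ppm, and differed by 8.23 and 8.27 points without replicate 2, so that they alone of the 16 fell under 10 points.

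The lower tiles were intronic. At the Rsrc1 tile, in a gene for a splicing factor rich in arginine and serine, the level was 73.5%, 72.4% and 62.2% in 30 ppm replicates 1 to 3 and 92.7%, 81.8%, 76.4% and 87.0% in 3 ppm replicates 1 to 4. The highest 30 ppm embryo came within 3 points of the lowest 3 ppm embryo, although the means differed by 15.1 points, 69.4% ± 6.21 (SD, n = 3) against 84.5% ± 7.02 (SD, n = 4). For the difference of -15.1 points the quasi-binomial test gave an adjusted p = 0.0977. It gave 4.29e-06 at -16.6 points without 30 ppm replicate 2, 0.00177 at -17.1 points without replicate 1 and 0.979 at -12.3 points without 3 ppm replicate 1. In the intron of Hk1, a hexokinase, the 30 ppm embryos had 62.6%, 64.3% and 70.0% and the 3 ppm embryos 80.2%, 89.3%, 80.6% and 84.6%. Here a gap of over 10 points lay between the diets, with a difference of -18.1 points (adjusted p = 0.477) that was -17.4 points without replicate 2, at a depth of 26 to 323 reads per embryo. In the intron of Adcy6, an adenylyl cyclase, the levels were 75.3%, 78.2% and 82.7% on 30 ppm against 90.1%, 88.0%, 93.3% and 94.3% on 3 ppm. All 30 ppm embryos were below all 3 ppm embryos, by 12.7 points on average (adjusted p = 0.456) and by 12.4 points without replicate 2. In the intron of Micall2, which takes part in junction traffic, the 3 ppm embryos were close together at 60.9%, 62.8%, 58.2% and 60.1% and the 30 ppm embryos spread, with 51.3% in replicate 1, 44.8% in replicate 2 and less in replicate 3, for a mean of 44.9% ± 6.36. The introns of Pcdh1, a protocadherin, and Matn3, a matrilin of cartilage matrix, differed by -11.6 and -17.3 points, with 3 CpGs each. In the quasi-binomial test without 30 ppm replicate 1, the tiles of Arhgap23, Cdh20, Tgm3, Rsrc1, Tekt4, Helt, Mnx1, Micall2 and Zfp213 passed, with adjusted p between 8.99e-05 and 0.0472, and without replicate 2 those of Rsrc1 and Zfp213 passed.

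**Figure D4:**
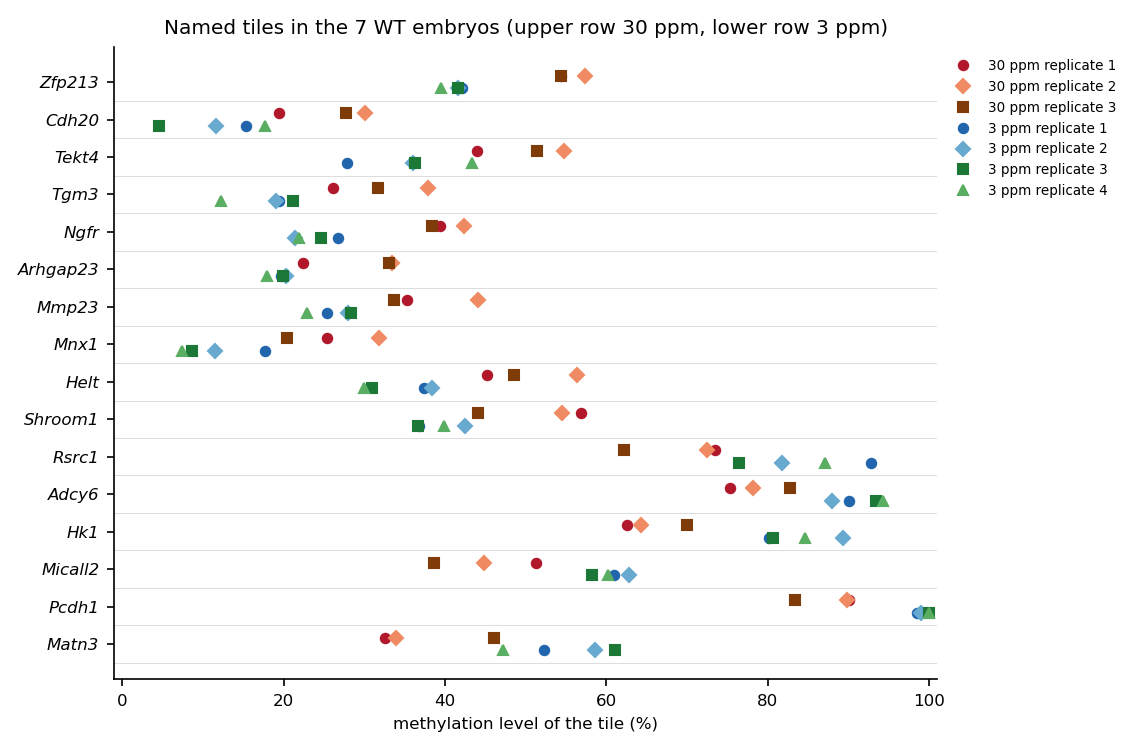
Methylation level (%, horizontal axis) of the 16 named tiles in each of the 7 WT embryos, with the 30 ppm embryos in the upper and the 3 ppm embryos in the lower row of each tile. The diets do not overlap in any tile by the rule that chose them, the gap between the nearest embryos is widest at Zfp213, from 42.06% to 54.3%, and narrowest at Tekt4, where 44.0% in 30 ppm replicate 1 stands beside 43.3% in 3 ppm replicate 4.

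Embryos of the other genotypes, which took no part in the choice of the tiles, gave a further reading of 12 of the 16 tiles. Most of them were littermates of the WT embryos, so this reading shares the litters that cannot be told apart from diet. The diet difference had the sign seen in WT in 6 of 12 tiles in HET embryos and in 4 of 12 in KO embryos, or 6 of 12 without KO replicate 1 on 30 ppm. Of all tiles 37.8% had the higher mean on 30 ppm in HET and 29.2% in KO embryos, and 8 of the 12 tiles were higher in WT. No tile passed an exact permutation test, with 0 of 24 at an unadjusted p under 0.05 and a smallest adjusted p of 0.818. The Rsrc1 tile had its lower mean on 30 ppm in all 3 genotypes, with differences of -15.8 points in HET embryos (66.0% ± 15.2, n = 5, against 81.8% ± 10.8, n = 3, exact p = 0.196) and -7.37 points in KO embryos (83.6% ± 13.7, n = 6, against 91.0% ± 7.08, n = 5, exact p = 0.323), over 5 of its CpGs. Without KO replicate 1 on 30 ppm the KO difference was -2.84 points. With each HET embryo left out in turn the HET difference ran from -20.3 to -9.71 points. The ranges in HET embryos overlapped, from 45.83% to 83.8% on 30 ppm and from 73.3% to 94.0% on 3 ppm. The Zfp213 tile was 4.64 points higher on 30 ppm in HET embryos (exact p = 0.482), or 1.27 points without HET replicate 1 on 30 ppm. In KO embryos it differed by -13.9 points (64.2% ± 12.9 against 78.0% ± 5.79, exact p = 0.0584). Without KO replicate 1 on 30 ppm the KO difference at Zfp213 was -11.4 points (exact p = 0.0952). The HET and KO values of this tile rest on 6 of its CpGs. The Ngfr tile had 40.48% ± 5.05 and 37.96% ± 12.0 in HET embryos and 66.0% ± 14.1 and 70.4% ± 3.07 in KO embryos on 30 and 3 ppm, and its KO difference of -4.46 points turned to 1.10 points without KO replicate 1 on 30 ppm. Its HET difference of 2.53 points was -4.17 points without HET replicate 1 on 3 ppm and 7.49 points without HET replicate 3 on 3 ppm.

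The higher tiles called without 30 ppm replicate 1 were mostly those in which replicate 2 was high. Of the 113 higher tiles 45 were at promoters (39.8%, beside 15.9% of all tiles), 28 in exons (24.8%, beside 14.7%), 17 in introns (15.0%, beside 35.8%) and 23 intergenic (20.4%, beside 33.6%). Replicate 2 was the highest of the 7 embryos in 104 of them and exceeded each other embryo by 5 points or more in 90, and replicate 3 on 30 ppm was the highest in the other 9. In the 2 lower tiles, those of Rsrc1 and Micall2, replicate 3 was the lowest. The median level was 21.4%, 40.8% and 25.7% in 30 ppm replicates 1 to 3 and 19.4%, 18.5%, 21.8% and 18.5% in 3 ppm replicates 1 to 4. In an exon of Adra1a, the alpha-1A adrenergic receptor gene, replicate 2 had 27.7%, and the other 6 embryos had between 4.06% and 5.50%. At the promoter of Cspg4, the NG2 proteoglycan of pericytes and glial progenitors, it had 23.8% against 2.07% to 5.96% in the others. In the Wnt3a intron, in the gene of a WNT ligand of the dorsal brain, replicate 2 had 42.89%, and the others had 14.5% to 22.7%. In Runx1, a blood transcription factor, an exon had 26.4% in replicate 2 and 2.60% to 8.89% in the others. Promoter tiles of Noto and Fry also had replicate 2 on top, with 28.8% and 18.8%. In 94 of the 113 tiles all 35 libraries had values, and there replicate 2 had a median of 41.5%, while the medians of single HET embryos on 30 and 3 ppm lay between 28.6% and 32.7% and those of KO embryos on 3 ppm between 63.8% and 68.9%. As most of these tiles passed through the high levels of replicate 2, its median was raised by that choice. Its place against HET and KO embryos cannot be read from these tiles. Within HET and within KO embryos the mean was higher on 30 ppm in 36 and 5 of the 94 tiles. Of all tiles 37.8% and 29.2% had the higher mean on 30 ppm there, with KO replicate 1 on 30 ppm kept in. Of the 113 tiles, 78 (69.0%) overlapped a region that the authors list as higher in KO than in WT on 0.1 ppm FA, an embryo set with none of these 7, as did 9.06% of all tiles. Whether the genotype of replicate 2 accounts for these levels was not tested.

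The tiles called without 30 ppm replicate 2 were mostly lower tiles, with replicates 1 and 3 both low in their medians. The choice of tiles without replicate 2 favours such a pattern. Over the 21 lower tiles the median level was 35.97%, 63.7% and 40.8% in 30 ppm replicates 1 to 3 and 62.1%, 58.3%, 60.9% and 58.0% in 3 ppm replicates 1 to 4, and replicate 1 was the lowest of the 7 in 17 of them. Of the 21 tiles, 7 (33.3%) overlapped the authors' regions higher in KO than in WT on 0.1 ppm, beside 9.06% of all tiles. In HET and KO embryos 19 of the 21 had values, and 15 and 18 of these had the lower mean on 30 ppm. Their median differences were -2.90 and -3.91 points, beside -0.886 and -1.41 points over all tiles. Most of those embryos were littermates of the WT embryos, and KO replicate 1 on 30 ppm was kept in. At the exon of Cbx6, a Polycomb protein, replicates 1 to 3 on 30 ppm had 51.8%, 69.5% and 60.3% and those on 3 ppm 71.1%, 63.7%, 60.9% and 71.8% over 48 CpGs. Replicate 2 thus lay inside the 3 ppm range and the others below it. At the tile near Wnt11, a ligand of noncanonical WNT signalling, the levels were 44.8%, 68.5% and 49.4% on 30 ppm against 61.5%, 62.6%, 70.8% and 65.4% on 3 ppm. Upstream of Syk, a tyrosine kinase of immune cells, they were 34.13%, 53.2% and 38.8% on 30 ppm against 50.6%, 53.1%, 57.7% and 53.3% on 3 ppm. In both, replicates 1 and 3 lay over 10 points below the lowest 3 ppm embryo and replicate 2 did not. Other tiles in this set lay at Foxp1 and Etv5, both transcription factors, and at Cdh13, a cadherin that repels axons, with differences of -11.2, -15.3 and -28.4 points without replicate 2. The 2 higher tiles were those of Zfp213 and of Extl3, an enzyme of heparan sulfate synthesis, where replicates 1 and 3 had 68.3% and 82.1%, replicate 2 had 49.6% and the 3 ppm embryos had 53.9% to 54.9%.

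At 13857 promoters of protein-coding genes, taken as 1 kb to either side of a start site, 0 passed the quasi-binomial test with limma's moderated dispersion (percent called 0), and limma on logit levels called 0. The unadjusted count with at least 10 points was 5 (0.0361% of promoters, 5 higher and 0 lower), at Cryge, Krt71, Tekt4, Nipsnap3a and Sycp3, and 8 by limma. Mean levels were higher on 30 ppm at 64.6% of promoters, with a median difference of 0.0860 points, or 0.0395 points without replicate 2. Every 30 ppm embryo lay above every 3 ppm embryo at 545 promoters (3.93%) and below at 153 (1.1%). With the dispersion fixed at 1, 6 promoters were called (0.0433%), all higher on 30 ppm. Among the 5 higher promoters with the smallest p, Calhm6, which encodes a calcium homeostasis modulator channel, had 4.36%, 7.81% and 4.72% on 30 ppm against 1.93%, 1.62%, 1.26% and 2.04% on 3 ppm. All 30 ppm embryos were above all 3 ppm embryos, and replicate 2 was the highest. Ttyh3, of the tweety family, had 2.03%, 4.23% and 1.59% on 30 ppm against 0.645%, 0.410%, 0.363% and 0.972% on 3 ppm, and Fkbp6, which is needed in meiosis, 92.5%, 89.98% and 87.6% against 83.0%, 86.8%, 87.3% and 78.8%. Sfi1, of the centrosome, differed by 3.62 points with overlapping groups, and the promoter of Tekt4 holds the same CpGs as its tile above. Among the lower promoters, Tex101, a gene of the testis, had 88.6%, 85.1% and 83.3% on 30 ppm against 91.6%, 90.2%, 89.3% and 89.9% on 3 ppm. The window shared by the head-to-head genes Cab39l and Setdb2 had 0.287%, 0.197% and 0% against 1.12%, 1.79%, 1.79% and 0.627%, and Pcdha3, a clustered protocadherin, had 32.6% ± 2.09 against 39.8% ± 1.9. 4933416C03Rik differed by -2.07 points. Each of these 10 promoters had an adjusted p of 0.992.

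Genes that take up and keep folate in cells were measured at 8 of 10 promoters, and 0 passed the test. Their median difference was 0.375 points (0.166 without replicate 2), beside 0.0860 points for all promoters, with 7 of 8 means higher on 30 ppm, beside 64.6% of all promoters, and 2 promoters with every 30 ppm embryo higher, beside 3.93% of all promoters. These 2 were Fpgs, whose product traps folate as polyglutamates, with 2.89%, 2.91% and 3.40% on 30 ppm against 2.78%, 2.81%, 1.97% and 1.88% on 3 ppm, and the efflux transporter gene Abcg2, with 1.19%, 2.15% and 1.24% against 0.860%, 1.15%, 0.848% and 0.980%. In both the nearest embryos of the diets were less than 0.1 points apart. Slc19a1, the reduced folate carrier, had 10.2% ± 2.96 and 9.06% ± 2.66, and Folr1, the folate receptor, 87.0% ± 5.46 and 89.6% ± 2.90 on 30 and 3 ppm. Both differences turned without 30 ppm replicate 2, from 1.13 to -0.482 points at Slc19a1 and from -2.59 to 0.479 points at Folr1. The proton-coupled transporter gene Slc46a1 had 4.99% ± 1.19 and 4.77% ± 2.20, Ggh 2.43% ± 0.611 and 1.90% ± 0.428, Lrp2 0.662% ± 0.201 and 0.608% ± 0.216, and the mitochondrial carrier gene Slc25a32 0.696% ± 0.252 and 0.491% ± 0.182. Without 30 ppm replicate 2 the difference went from 0.217 to 0.00809 points at Slc46a1, from 0.534 to 0.183 at Ggh, from 0.205 to 0.0620 at Slc25a32, from 0.566 to 0.252 at Abcg2 and from 0.0538 to 0.149 at Lrp2. Of the folate and methionine cycle enzymes 35 of 39 were measured, 18 with a higher and 17 with a lower mean, 0 called and a median difference of 0.0287 points, or -0.0187 points without replicate 2. The widest were Mat1a, a methionine adenosyltransferase of liver, at 3.15 points, and Tyms, thymidylate synthase, at -0.706 points, or -5.27 points without replicate 2.

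Enzymes that write and remove DNA methylation were all measured (20 of 20), with 0 called and a median difference of 0.0170 points, or 0.0415 points without 30 ppm replicate 2. The methyltransferase promoters of Dnmt1, Dnmt3a and Dnmt3b were nearly free of methylation, with 0.836% ± 0.436, 0.723% ± 0.204 and 0.484% ± 0.0885 on 30 ppm against 0.775% ± 0.202, 0.597% ± 0.180 and 0.685% ± 0.218 on 3 ppm. Tet2 had 0.754% ± 0.0917 and 0.482% ± 0.171, and Tet3 0.701% ± 0.0907 and 0.623% ± 0.221. The Tet1 window lay around position 62880014, the annotated start site with the most measured CpGs, which need not be the main promoter of the gene. This window was almost fully methylated, with 95.3%, 91.4% and 89.4% on 30 ppm against 90.5%, 90.4%, 93.2% and 92.9% on 3 ppm. The diets overlapped there. Dnmt3l, the cofactor of the de novo enzymes, had the largest difference upward, 4.21 points, and Dppa3, which protects methylation in the egg, the largest downward, -2.98 points, or 2.78 and -4.87 points without 30 ppm replicate 2. Trim28, a corepressor at imprinted loci, had 0.180%, 0.450% and 0.162% on 30 ppm against 0.489%, 0.502%, 1.01% and 0.589% on 3 ppm. It was the 1 promoter of the 20 with every 30 ppm embryo lower, beside 1.1% of all promoters, and 0 of the 20 had every 30 ppm embryo higher, beside 3.93%. Imprinted genes, which carry methylation on the allele of 1 parent, were measured at 22 of 28 promoters. They had 11 higher means, beside 64.6% of all promoters, and 11 lower ones, with 0 called and 0 apart. Mcts2 was 6.26 points higher and Snrpn 13.5 points lower on 30 ppm (mean difference -13.5). At Snrpn the 30 ppm embryos had 49.5%, 41.18% and 17.6% and the 3 ppm embryos 47.6%, 45.2%, 46.1% and 59.7%, so that the gap came from replicate 3 on 30 ppm and replicate 4 on 3 ppm.

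Genes of cranial neural tube closure were measured at 34 of 34 promoters, 26 with a higher mean on 30 ppm (76.5%, beside 64.6% of all promoters) and 8 with a lower one. Of these 0 were called, and the median difference was 0.0973 points, or 0.151 points without 30 ppm replicate 2. With all embryos the differences lay between -0.834 points (Dvl2, a WNT signal transducer) and 0.474 points (Marcks, an actin regulator). Grhl2, a transcription factor of surface ectoderm, had 0.501%, 0.606% and 0.404% on 30 ppm against 0.782%, 0.941%, 1.22% and 1.26% on 3 ppm. Sall4, a transcription factor of pluripotent cells, had 0.921% ± 0.109 against 0.553% ± 0.303. Grhl2 was the 1 member of 34 with every 30 ppm embryo lower and Sall4 the 1 with every 30 ppm embryo higher, beside 1.1% and 3.93% of all promoters. Ion channels (43 of 47 measured), a list of voltage-gated channels that also holds the voltage-independent Kcnn genes, and synapse assembly genes (35 of 42) follow terms that the study named from these embryos and so are no independent evidence. Their median differences were 0.131 and 0.173 points, or 0.00322 and 0.0968 points without replicate 2. They had 34 and 27 higher means (79.1% and 77.1%, beside 64.6% of all promoters) and 0 called. Every 30 ppm embryo lay above every 3 ppm embryo at 3 of the 43 and 2 of the 35, beside 3.93% of all promoters. Kcnn3, a calcium-activated potassium channel, had 4.20%, 9.05% and 4.35% on 30 ppm against 3.18%, 2.80%, 2.39% and 3.50% on 3 ppm, with the diets apart and a difference of 2.90 points, or 1.31 points without replicate 2. Kcna5 had 16.9% in 30 ppm replicate 2 and 4.82% to 6.56% in the other 6 embryos, and its difference of 3.11 points was -0.810 points without that embryo. The synaptic scaffold gene Dlg2 likewise had 20.1% in replicate 2 and 3.85% to 9.23% in the others, and its difference of 2.98 points was -2.18 points without that embryo. Kcnn1 was the lowest of the ion channels, at -0.315 points. WNT ligands, receptors and inhibitors (41 of 43) had a median difference of 0.116 points, from -1.46 points at Wnt8a to 1.67 points at Wnt5a. Without replicate 2 the median was 0.0683 points and these members had -5.93 and 0.219 points. Brain patterning factors (39 of 40) had a median of 0.0641 points, from -0.519 points at Pax8 to 0.394 points at Lhx6, a factor of interneurons. Germline genes that methylation keeps silent (18 of 20) had a median of 0.413 points (0.691 without replicate 2), from -4.53 points at Tex101 to 10.5 points at Sycp3, a protein of the synaptonemal complex, whose groups overlapped. In each of these lists 0 were called.

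Marker promoters of the cells that the dissected tissue could hold were also read. Neural progenitor markers (9 of 10 measured) had a mean level of 0.707%, 0.727% and 0.841% in 30 ppm replicates 1 to 3 and 0.670%, 0.602%, 0.724% and 0.519% in 3 ppm replicates 1 to 4. Blood and endothelial markers (4 of 12) had 33.3%, 36.29% and 33.7% on 30 ppm against 31.9%, 35.15%, 31.8% and 31.9% on 3 ppm. Mesenchyme markers (7 of 10) had 3.12%, 6.35% and 4.33% against 4.24%, 3.86%, 3.96% and 3.87%. The high value of 30 ppm replicate 2 in the last list came from Meox1, a somite factor, with 40.4% in that embryo and 18.2% in the lowest, and a difference without it of -2.09 points. No marker promoter was called or had the diets apart. The widest differences in the first list were 0.304 points at Nes and -0.00810 points at Pax6, in the second 3.93 points at Spi1 and -0.121 points at Cd34, and in the third 4.30 points at Meox1 and -0.436 points at Pdgfra. The part of cell make-up in the results above was not tested.

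The authors' own list of regions higher on 30 than on 3 ppm in WT embryos was read last. It holds 857 regions, 590 on autosomes, 266 on the X chromosome and 1 on neither. The X chromosome thus has 31.0% of the list, whereas it has 1.82% of the CpGs shared by the 7 embryos. At the X regions the 2 females on 30 ppm had 26.2% and 26.4% and the 2 females on 3 ppm 26.2% and 25.8%, while the male on 30 ppm had 1.37% and the 2 males on 3 ppm 1.26% and 1.24%. Within a sex the diets were less than 1 point apart, and 30 ppm had 2 females of 3 and 3 ppm 2 of 4. At the autosomal regions the level was 35.98%, 43.1% and 34.52% in 30 ppm replicates 1 to 3 and 33.6%, 32.7%, 33.4% and 31.7% in 3 ppm replicates 1 to 4. As these embryos chose the regions, the difference of 5.03 points, or 2.42 points without 30 ppm replicate 2, is a description with no test. All 30 ppm embryos were above all 3 ppm embryos, with replicate 2 far above the rest.

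At the same autosomal regions, embryos that the list was not made from had lower means on 30 than on 3 ppm. With the libraries grouped by label, neither difference passed the adjusted test. All tiles measured in those genotypes also had a median difference below 0, of -0.886 points in HET and -1.41 points in KO embryos. HET embryos had 38.66% ± 0.635 (SD, n = 5) on 30 ppm against 40.0% ± 0.187 (SD, n = 3) on 3 ppm, a difference of -1.30 points (exact permutation p = 0.0357, adjusted p = 0.0541 over 4 comparisons). These comparisons permuted single embryos, although several embryos within and between the groups were littermates, and litter was not taken into account. Libraries labelled KO had 51.5% ± 6.38 (SD, n = 6) and 55.8% ± 1.18 (SD, n = 5), a difference of -4.36 points (exact p = 0.0541, adjusted p = 0.0541). Without KO replicate 1 on 30 ppm, which the study lists as HET and whose level was 38.59% beside 37.8% to 39.2% in HET embryos on that diet, it was -1.78 points (exact p = 0.0476). KO embryos exceeded HET embryos on 3 ppm by 15.9 points (exact p = 0.0179) and WT embryos on 0.1 ppm by 18.4 points (exact p = 0.0476). Both had an adjusted p of 0.0541 by exact permutation, and every KO embryo lay above the other group (5 of 5). Both exact p were the smallest that the numbers of embryos allow. The adjusted p of all 4 comparisons was set by the KO diet comparison, which includes the library that the study lists as HET. With that library left out none of the 4 exact permutation p exceeded 0.0476, and the adjustment was not repeated. Whether the comparisons pass therefore rests on the label of that library. Of the 2 WT embryos on 0.1 ppm, which also took part in the list used next, replicate 2 had 6 methylated of 15 and 11 of 18 reads at the first and second Tet1 CpG, where replicate 1 had 1 of 16 and 8 of 24. The difference was 21.4 points without replicate 2 and 15.4 points without replicate 1. Of the 590 autosomal regions 292 (49.5%) overlapped regions that the authors list as higher in KO than in WT on 0.1 ppm. In turn 284 autosomal regions of that KO list (4.28%) overlapped the WT list. The KO list covers 5.35% of the shared CpGs, a share of CpGs and not of regions, so it is no background for the 49.5%. Over the whole of that list, 30 ppm replicates 1 to 3 had 27.5%, 34.9% and 27.1% and 3 ppm replicates 1 to 4 had 29.0%, 28.3%, 28.1% and 27.3%. Replicate 2 alone stood above the 3 ppm embryos there, and HET embryos on 30 ppm had 30.7% to 32.8%. In the part of the WT list outside these regions the level was 54.2%, 57.32% and 54.05% on 30 ppm against 52.1%, 49.8%, 49.95% and 49.2% on 3 ppm.

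**Figure D5:**
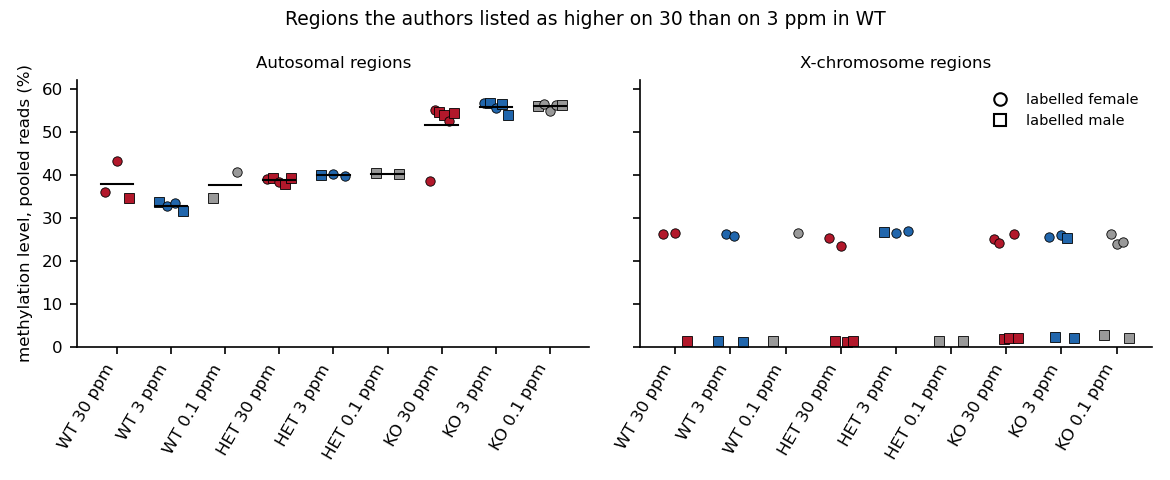
Methylation level (%, reads pooled) of each embryo at the autosomal (left) and X-chromosome (right) regions that the authors list as higher on 30 than on 3 ppm in WT, by genotype and diet, with circles for embryos labelled female, squares for male and lines for group means at autosomal regions. At autosomal regions KO embryos lie highest, with a mean of 55.8% on 3 ppm, apart from 1 library labelled KO on 30 ppm at 38.59%, and 30 ppm WT replicate 2 at 43.1% stands above its group, while at X regions the 7 WT embryos fall at 25.8% to 26.4% or 1.24% to 1.37% by sex.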

How the data were processed

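Single E11.5 mouse brains were profiled by oxidative bisulfite RRBS with molecular identifiers. Per the study's methods, the authors trimmed reads with Trim Galore 0.6.10, aligned them to mm10 and called CpGs with Bismark 0.24.1, removed duplicates by UMI-tools and listed differential regions with methylKit 1.26.0. The deposited tables give for each CpG the methylated fraction and the coverage, a count of reads, and fraction times coverage was within 0.001 of a whole number on 100% of lines. Deposited positions count from 0 and 1 was added. The deposited region lists hold positions, and columns of samples left unused numbered 0.

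CpGs with at least 5 reads in all 7 embryos were kept (median reads per tile 60 to 429 per embryo). Tiles of 1000 bp with at least 3 such CpGs and a between-embryo SD of at least 2 points, and promoters within 1000 bp of GENCODE starts, were tested on methylated and unmethylated counts by a quasi-binomial model whose dispersion was moderated across all features with limma 3.58.1 (squeezeVar), with Benjamini-Hochberg adjustment over all features. Called means adjusted p under 0.05 and at least 10 points. limma on logit levels used a prior of 0.5 reads. Single values were compared by two-sided exact permutation over embryos. Python 3.11.15 and R 4.3.3 were used, and the fits were tested on simulated data. The text names the 10 higher and 6 lower tiles with the smallest p among those with 10 points and no overlap of the diets (at most 1 per gene), the 5 promoters each way with the smallest p, folate transport, Tet and Dnmt genes, the extremes of each gene list (1 of them and 1 sequence are not reported here), and examples from the tiles called without 1 embryo, which were chosen after their values were seen. Some list members, such as Kcnn3, are named because the diets lay apart there. Members and lists were chosen with earlier results of these data known. The p-values measure only the spread between these embryos. Of 36 libraries 35 were used, the shallowest being left out. Alternatives were other coverage, CpG and size minimums, 500 bp tiles, sex as covariate, females only, littermates summed, reads thinned to 10, limma, a dispersion of 1 and each embryo left out.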

Additional observations from a re-analysis of the deposited data

Results flagged for a closer look

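Of 116 groups of 4 to 10 embryos looked at, 11 held a highest or lowest embryo far from the rest by Dixon's criterion, and chance alone flags about 1 in 20 groups.

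Among the 4 WT embryos on 3 ppm, replicate 3 had 97.1% at the promoter of 4933416C03Rik, where the others had 95.5% to 95.7%. Replicate 4 had 59.7% at the promoter of Snrpn, an imprinted gene, where the others had 45.2% to 47.6%. Replicate 2 had 1.70% at the promoter of Nes, the intermediate filament of neural progenitors, where the others had 0.503% to 0.557%.

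The library labelled KO replicate 1 on 30 ppm, which the study lists as HET and which had 9 methylated of 20 reads at the first Tet1 CpG, stood low in 5 groups. It had 38.59% at the autosomal regions listed as higher on 30 ppm in WT, against 52.4% to 55.1% in the other KO embryos on that diet. Its level was 42.7% at the tile of Tekt4 (others 60.3% to 69.8%), 20.1% at that of Tgm3 (others 50.7% to 55.6%), 38.1% at that of Ngfr (others 67.8% to 78.5%) and 42.06% at that of Helt (others 67.4% to 77.6%). KO replicate 3 on 0.1 ppm had 54.9% at the listed autosomal regions, and the others had 55.9% to 56.3%.

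HET replicate 1 on 30 ppm had 64.0% at the Zfp213 tile, with 46.4% to 47.8% in the other HET embryos on 30 ppm. HET replicate 3 on 30 ppm had 59.2% at the Shroom1 tile, with 39.3% to 41.6% in the others.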

How the results depend on the processing

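Leaving out each embryo in turn gave between 0 and 115 called tiles and a median tile difference between -0.171 and 1.34 points. Tiles of 500 bp gave 3 calls and a dispersion of 1 gave 249, or 441 without 30 ppm replicate 2, a fit chosen after seeing the data, as were limma without replicate 1 or 2 and the named tiles in HET and KO embryos. At promoters a dispersion of 1 gave 6 calls, 1 of them a germline gene. With each embryo left out, the difference of mean methylation ran from -0.0766 to 0.586 points, and it was -0.311 points with each embryo read over its own CpGs. In the same way the difference ran from 0.0319 to 0.310 points at promoters, from 0.0543 to 0.186 in CpG-dense sequence and from 0.0692 to 0.186 at CpGs under 10% in HET embryos, from -0.133 to 0.943 points in exons, from -0.318 to 0.962 in introns, from -0.172 to 0.943 in intergenic and from -0.220 to 1.02 in CpG-poor sequence, from -0.222 to 3.26 at CpGs of 10 to 30%, from -0.846 to 2.88 at 30 to 70%, from -0.409 to 1.16 at 70 to 90% and from -0.0247 to 0.382 at 90 to 100% in HET embryos. At the listed autosomal regions it ran from -1.44 to -1.07 points between HET diets, from -5.08 to -1.78 between KO diets (-4.12 with each region weighted equally) and from 15.4 to 21.4 for KO over WT on 0.1 ppm. The causes were not tested. Of 305 values of the 16 named tiles under the alternatives 0 changed sign and 42 passed an adjusted p of 0.05. The 42 came from fits without 30 ppm replicate 1 or 2 or with a dispersion of 1. Of 109 values of the named promoters 0 changed sign and 10 passed that threshold, all at a dispersion of 1. The unchanged signs are no evidence of stability. The tiles, and the promoters other than Sfi1, had the diets apart, so no embryo left out could turn their sign. The differences between genotypes, left out by embryo after seeing the data, ran from 0.314 to 0.927 points against HET and from 0.608 to 1.27 against KO. With 60 to 429 median reads per tile, the median half-width of a tile's difference was 7.57 points, and the parts of depth and of spread between embryos in it were not separated. No paired analysis of the diets was possible because replicate numbers followed accession order only and no litter had both diets. KO embryos shared litters with HET embryos on 3 ppm and with WT embryos on 0.1 ppm, but these comparisons were not paired.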
